A study of Malus domestica with 15 samples.

Results

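In the skin of stored apples (Malus domestica), 62 loci had lost most of their harvest transcript level by the end of cold storage, whether or not the fruit had been treated with 1-methylcyclopropene (1-MCP), and stayed low through shelf life. They were drawn from 80965 loci of the table, of which 30310 carried an apple gene model (an MDP identifier), had no group listed at 0 and averaged at least 1 FPKM over the 5 groups. FPKM scales sequenced fragments to transcript length and to library size, so levels are per length. Members were chosen by the FPKM of all 5 groups. A locus was a member when log2(FPKM + 1) was at least 2.5 units below harvest in each of the 4 stored groups, and when the change over shelf life was smaller than 1 unit in control and in 1-MCP fruit. The declines below are therefore descriptions of what was selected, and no test was made of them.

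The groups were fruit at harvest, which were untreated and unstored; control fruit after 2 months of cold storage; control fruit after 2 months of cold storage and 7 days of shelf life; and fruit given 1-MCP at 0.7 µl/L and sampled at the same 2 stored times. Each group had 3 samples, which the labels call biological replicates, but the table holds 1 value per group. No spread between replicates, library depth, error or p-value can therefore be given, and every difference lacks a replicate check. The groups hold neither treated fruit at harvest nor fruit stored without cold, so storage time and cold cannot be told apart. In tissue RNA, fewer cells of a type and less RNA per cell cannot be told apart either. Names, functions and positions of the loci are not in the file, and 0 of its 63541 gene models matched an entry of RefSeq's apple gene list (assembly GDT2T_hap1), so the members are given by identifier, without roles or sequences, and skin markers could not be read.

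Apple is a climacteric fruit, in which ripening after harvest is driven by a rise of the gaseous hormone ethylene and by its perception at receptors in the endoplasmic reticulum membrane. 1-MCP occupies these receptors and blocks the response, which slows softening and aroma formation in storage. It also prevents superficial scald, a browning of the skin that follows cold storage and that the study's title takes as its subject.

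At harvest the members ranged from 6.37 to 171 FPKM, with a median of 25.8 FPKM, a level that 28.4% of the 30310 gene model loci reached or exceeded. There were 6 members at 100 FPKM or more, 16 from 40 to 100 FPKM, 34 from 10 to 40 FPKM and 6 below 10 FPKM. A locus below 4.66 FPKM at harvest could not enter, because even a fall to 0 would not reach the limit on this scale. The members were thus moderately expressed loci, and together they made up 0.0922% of the summed FPKM at harvest. In the stored groups this share was between 0.00317% (1-MCP fruit after shelf life) and 0.0045% (1-MCP fruit on removal from the cold).

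In storage the median member stood at 0.617 FPKM in control fruit on removal from the cold and at 0.173 FPKM after shelf life. In 1-MCP fruit it stood at 1.45 FPKM and 0.781 FPKM at these times. As a share of the harvest value, the median was 2.54% and 0.855% in control fruit and 4.46% and 2.9% in 1-MCP fruit, against medians between 74.8% and 95.8% over the 30310 loci. The highest share that any member kept was 15.7%, in 1-MCP fruit on removal from the cold. The harvest value was between 6.37-fold and 1316-fold above the highest of the 4 stored values, with a median of 15.5-fold, so no stored value of any member came near its harvest value.

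**Figure D1:**
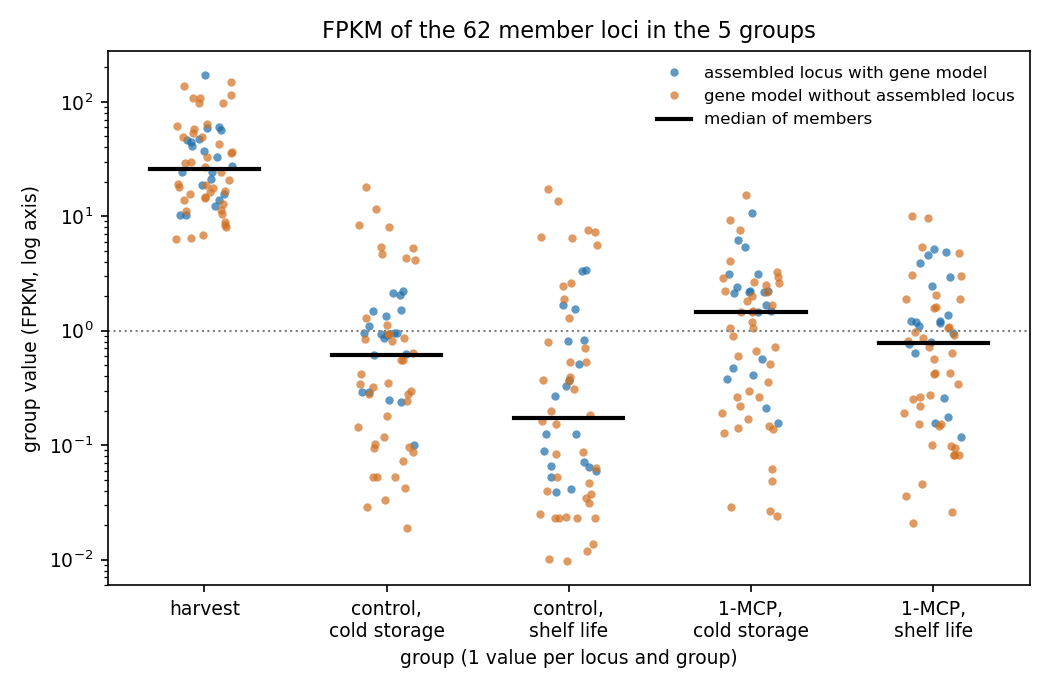
FPKM of each of the 62 members (points, log axis) in the 5 groups, coloured by the kind of locus, with the median of the members as a bar; there is 1 value per locus and group, and the dotted line marks 1 FPKM. The harvest values lie between 6.37 and 171 FPKM, while the medians of the stored groups lie between 0.173 and 1.45 FPKM.

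On the log2(FPKM + 1) scale the median difference from harvest was -3.83 in control fruit on removal from the cold and -3.89 after shelf life. It was -3.38 and -3.65 in 1-MCP fruit at these times. By the rule all 62 members passed the limit of 2.5 units in each group. Among the 30310 loci that limit was passed by 2.03% (control) and 1.36% (1-MCP) on removal from the cold, and by 3.89% (control) and 1.82% (1-MCP) after shelf life. All 4 limits together were met by 92 loci (0.304%), and the whole rule by 0.205%. The 4 differences are taken from the same single harvest value, so they are not independent of each other.

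Because 1 was added to every value, a locus that falls to 0 has a difference equal to its own log2 harvest level, and members of low harvest level cannot show a large one. At the 6 members below 10 FPKM at harvest, all 4 stored values were below 1 FPKM. The same held for 16 of the 34 members from 10 to 40 FPKM, for 3 of the 16 from 40 to 100 FPKM, and for 1 of the 6 above. At the 6 members below 10 FPKM this was fixed in advance by the limit on the decline. That limit holds stored values lower where the harvest level is lower, so nothing is read from these shares.

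**Figure D2:**
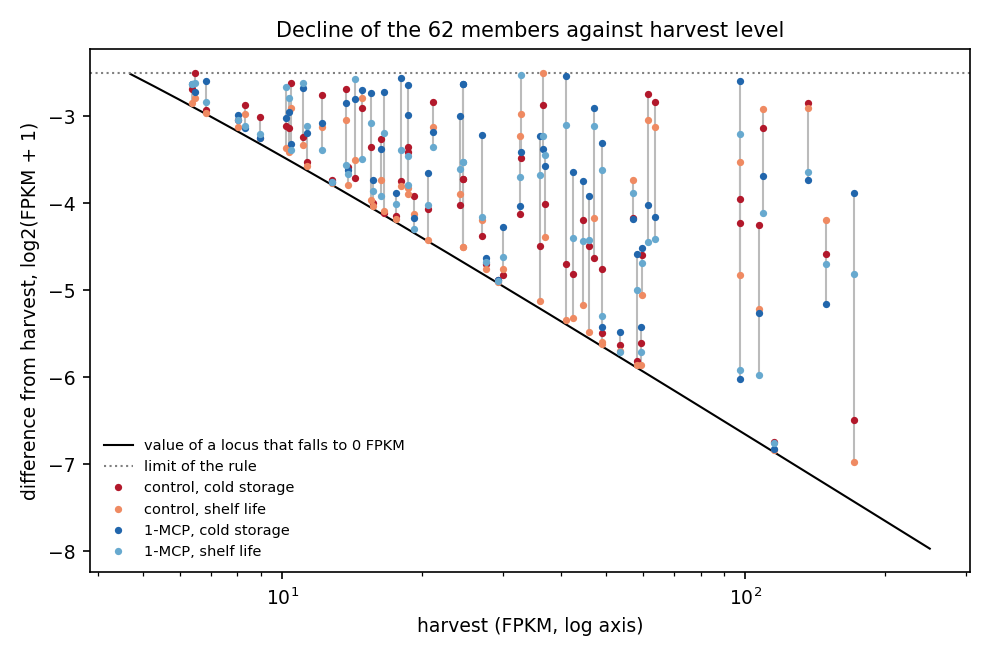
Difference from harvest in log2(FPKM + 1) of each member in the 4 stored groups (coloured points joined by a grey line) against its harvest FPKM (log axis); the black line is the value of a locus that falls to 0 FPKM and the dotted line the limit of the rule at -2.5. Members of low harvest level lie between the 2 lines in a narrow range, while the member highest at harvest spans -6.98 to -3.88.

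The most complete loss was at MDP0000184619. It stood at 115 FPKM at harvest, 0.0878 FPKM in control fruit on removal from the cold and 0.0231 FPKM after shelf life, and at 0.0238 and 0.0813 FPKM in 1-MCP fruit at these times. All 4 stored values were at trace level, and neither treatment nor time set them apart. It had the most negative difference of all members in control fruit on removal from the cold (-6.74) and in both 1-MCP groups (-6.83 and -6.75), and the next to most negative in control fruit after shelf life (-6.83). The stored values were below 0.1 FPKM in all 4 groups at 3 members, which were this locus, MDP0000496434 (29.3 FPKM at harvest) and MDP0000938388 (12.8 FPKM at harvest), the last pair picked after their values were seen.

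CUFF.49074, an assembled locus with gene model MDP0000319048, was the most abundant member at harvest and, on the log2(FPKM + 1) scale, the one at which the treatments lay furthest apart on removal from the cold. It stood at 171 FPKM at harvest, 0.911 FPKM in control fruit on removal from the cold and 0.369 FPKM after shelf life, and at 10.7 and 5.13 FPKM in 1-MCP fruit. Both 1-MCP values exceeded both control values, although all lay far below harvest. The difference from harvest was -6.49 and -6.98 in control fruit, and -3.88 and -4.81 in 1-MCP fruit.

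The next most abundant members behaved otherwise. MDP0000224162 stood at 149 FPKM at harvest, at 5.27 and 7.22 FPKM in control fruit at both stored times, and at 3.22 and 4.81 FPKM in 1-MCP fruit. MDP0000942873 stood at 136 FPKM at harvest, at 18.2 and 17.4 FPKM in control fruit, and at 9.32 and 10.1 FPKM in 1-MCP fruit. Both kept several FPKM in every stored group, with the higher values in control fruit at each time. Only MDP0000942873 and MDP0000839696 (109 FPKM at harvest, chosen after its values were seen) kept at least 5 FPKM in all 4 stored groups, and 10 of the 62 members kept at least 1 FPKM in all of them. At the other end, 26 members were below 1 FPKM in all 4, and the rule selects for such low values.

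**Figure D3:**
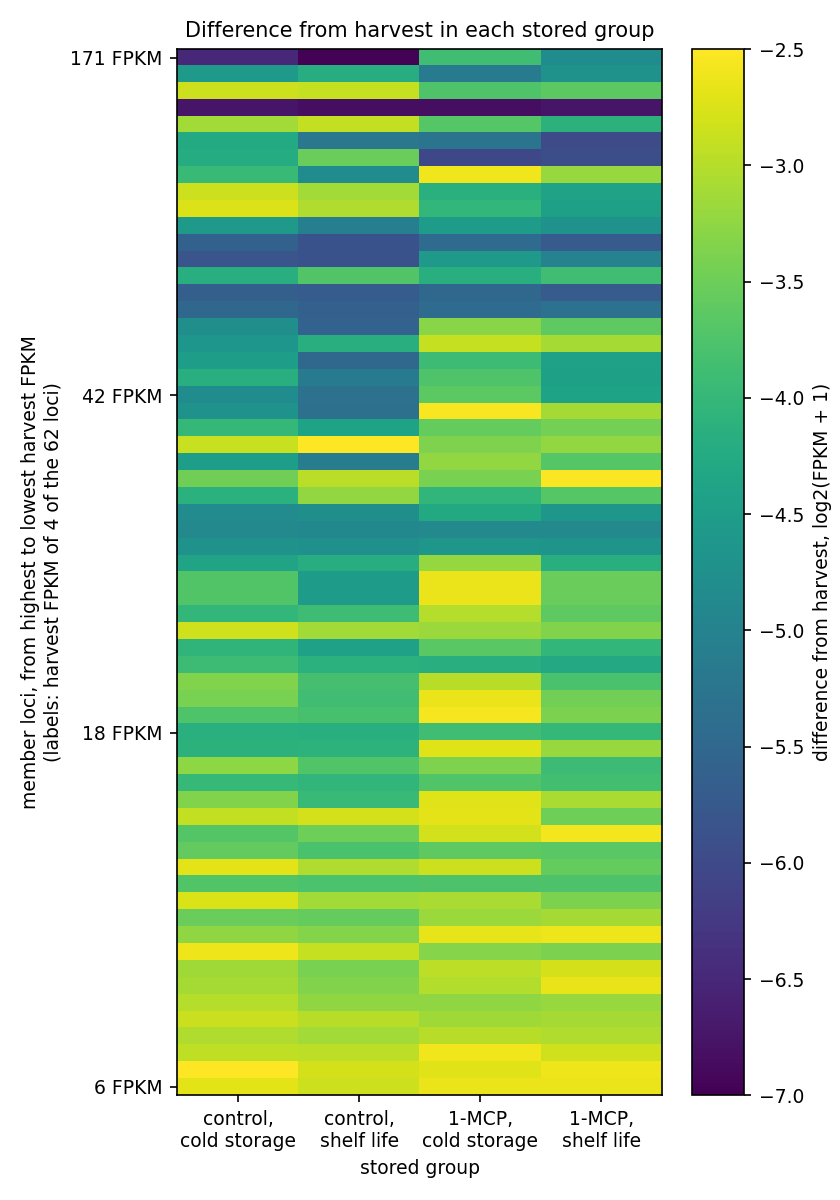
Difference from harvest in log2(FPKM + 1) (colour, from -2.5 in yellow to -7 in dark violet) of the 62 members (rows, ordered from the highest to the lowest harvest FPKM, with 4 harvest values given) in the 4 stored groups (columns). The most negative values lie in the upper rows, and the top row, CUFF.49074, reaches -6.98 in a control column and stays at -3.88 in a 1-MCP column.

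Control fruit after shelf life held the lowest of the 4 stored values at 36 of the 62 members (49.8% of the 30310 loci) and 1-MCP fruit after shelf life at 12 (22.8% of the loci). Fruit on removal from the cold held it at 8 members in the control (15.6% of the loci) and at 6 with 1-MCP (11.8% of the loci). The highest of the 4 was found in 1-MCP fruit on removal from the cold at 30 members (36.5% of the loci). The order of the groups among the members was thus much like that among all loci. Values below 0.1 FPKM, which few of the 30310 loci had, were found at 27 members in control fruit after shelf life (0.749% of the loci) and at 11 on removal from the cold (0.148%). In 1-MCP fruit they were found at 9 members after shelf life (0.663%) and at 5 on removal from the cold (0.327%). The rule selects for such low values, so nothing is read from these shares. The column of control fruit after shelf life was also the lowest in general, with a median of 7.98 FPKM over the 30310 loci against 11.1 FPKM at harvest, and the part of this in the order of the groups was not tested.

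Treated and control fruit were then compared at the same time, a contrast that the rule did not limit but whose columns it used. On removal from the cold 14 members were at least 1 log2 unit higher with 1-MCP and 4 at least 1 unit lower, that is 22.6% and 6.45% of the members, where 8.9% and 8.03% of the 30310 loci passed the same sizes. The 14 include CUFF.25929 and CUFF.29163, which had identical values in all columns. The counts were 13 and 4 with 75th percentile scaling of the columns, 11 and 5 with trimmed mean scaling, and 10 and 5 with quantile normalization. The shares of all loci under these scalings were not computed. After shelf life 7 members (11.3%) were higher and 4 (6.45%) lower, where 12.7% and 8.37% of all loci were, but with quantile normalization of the columns 5 were higher and 6 lower. On this scale the shares after shelf life were near those of all loci. The median difference of the members was 0.16 at both times, and that of the 30310 loci was 0.09 and 0.23. At 42 members the difference was under 1 unit at both times, and at 27 it was under 0.5 unit. The shares of all loci under these sizes were not computed, and the added 1 keeps differences small at low FPKM. Likeness of the treatments is therefore not read from these counts.

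The scale matters here, since the added 1 outweighs most of the stored values. In control fruit 44 and 47 of the 62 members were below 1 FPKM on removal from the cold and after shelf life (4.73% and 9.24% of the 30310 loci). In 1-MCP fruit 27 and 37 members were (4.15% and 5.98% of the loci). The rule selects for such low values. With 0.1 added in place of 1, the members at least 1 log2 unit higher and lower with 1-MCP were 24 and 7, then 26 and 8, and with 5 added they were 1 and 0, then 0 and 1. On FPKM itself, 25 members were at least 2-fold higher and 10 at least 2-fold lower with 1-MCP on removal from the cold (12.9% and 9.91% of the 30310 loci), and 35 and 11 were after shelf life (19.1% and 10.2% of the loci). Loci at low FPKM were more often at least 2-fold higher with 1-MCP than all loci were, but about as often at least 2-fold lower. Where both groups were under 5 FPKM, 21 of 53 members (39.6%) were at least 2-fold higher on removal from the cold, beside 17.3% of such loci, and 33 of 53 (62.3%) after shelf life, beside 26.4%. In the other direction 8 (15.1%) and 7 (13.2%) of these members were at least 2-fold lower, beside 10.3% and 9.71% of such loci. The depth behind values this low is unknown, so their error cannot be given.

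Of any size, 40 members were higher with 1-MCP on removal from the cold (57.1% of all loci) and 43 after shelf life (64.9% of all loci). The direction was the same at both times at 37 members higher and 16 members lower with 1-MCP, and it differed at 9. The shares of all loci with these directions were not computed, so nothing is read from these 3 counts. At least 1 log2 unit higher at both times were 6 members, beside 5.68% of all loci, and at least 1 unit lower at both times were 3, beside 5.52%.

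**Figure D4:**
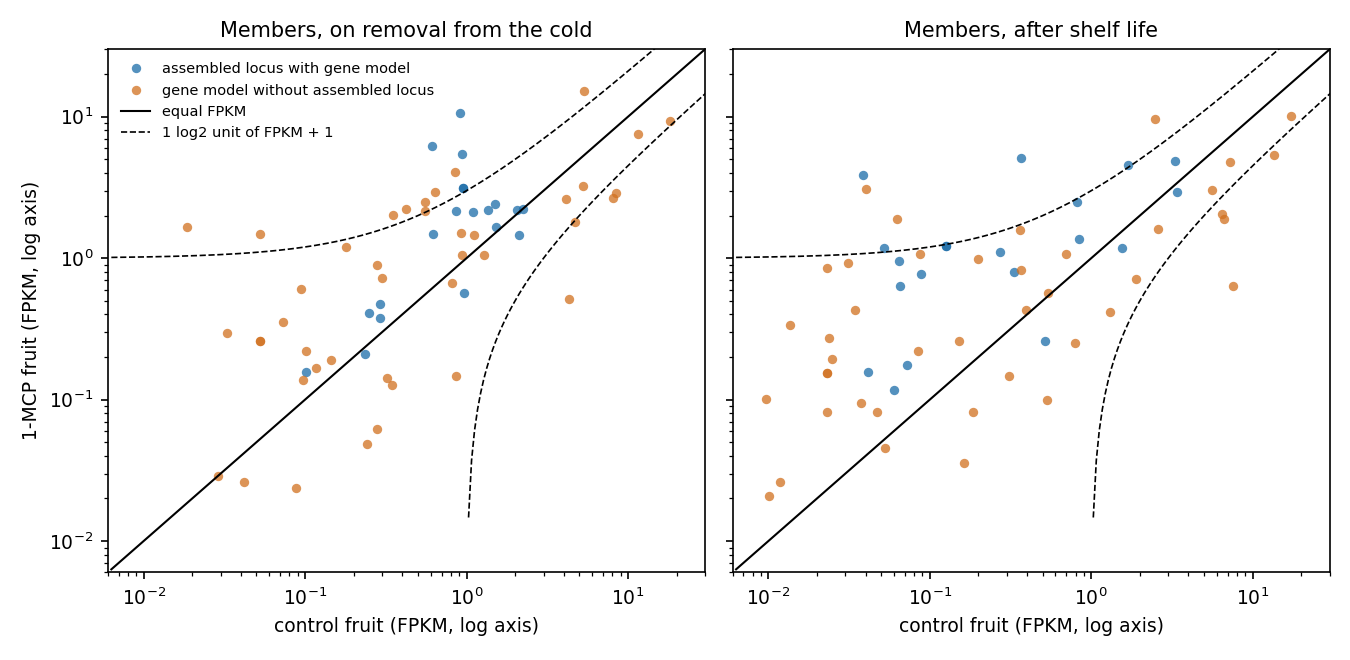
FPKM in 1-MCP fruit against FPKM in control fruit (both axes log) for the 62 members on removal from the cold (left) and after shelf life (right), coloured by the kind of locus. The solid line marks equal values and the dashed lines a difference of 1 log2 unit of FPKM + 1, beyond which lie 14 members above and 4 below on the left, and 7 above and 4 below on the right.

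On the log2(FPKM + 1) scale the members with the highest values under 1-MCP relative to control were CUFF.49074 and CUFF.17177. CUFF.17177, which carries MDP0000144978, stood at 41.0 FPKM at harvest, 0.613 and 0.0386 FPKM in control fruit at both stored times, and 6.22 and 3.9 FPKM in 1-MCP fruit. The transcript was nearly lost in control fruit and a remainder was kept with 1-MCP. The difference between treatments was 2.16 and 2.24 for CUFF.17177, and 2.62 and 2.16 for CUFF.49074. By the ratio of FPKM other members ranked higher on removal from the cold than CUFF.49074, which was at 11.8-fold. MDP0000231680 was at 88.9-fold (0.0187 FPKM in control and 1.66 FPKM in 1-MCP fruit) and MDP0000126361 at 28.0-fold (0.0525 and 1.47 FPKM). Both were picked after their values were seen, and their control values are at trace level. The control values of MDP0000126361 recur at MDP0000518858 and MDP0000771693, so they may not be a separate measurement. CUFF.49074 and CUFF.17177 belong to a set of 9 of the 62 members that were below 1 FPKM in both control groups and at or above 1 FPKM in both 1-MCP groups. These limits were met by 2.41% of the 30310 loci. The rule selects for low stored values, and 42 members were below 1 FPKM in both control groups, so no excess is read from the 9. The 9 include 2 loci with identical values in all columns, CUFF.25929 and CUFF.29163. Over the 9, control fruit had between 0.178 and 0.946 FPKM on removal from the cold and between 0.0386 and 0.7 FPKM after shelf life, and 1-MCP fruit between 1.2 and 10.7 FPKM and between 1.07 and 5.13 FPKM.

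The reverse, met by 2.16% of the 30310 loci, was found at 1 member, MDP0000187921. It stood at 97.5 FPKM at harvest, 4.29 and 7.55 FPKM in control fruit at both stored times, and 0.513 and 0.637 FPKM in 1-MCP fruit. Both control values were well above both 1-MCP values, with differences between treatments of -1.80 and -2.38. MDP0000239834 and MDP0000180004 were the other members at least 1 unit lower with 1-MCP at both times. MDP0000239834 stood at 63.7 FPKM at harvest, 8.06 and 6.44 FPKM in control fruit, and 2.64 and 2.05 FPKM in 1-MCP fruit. MDP0000180004 followed it closely, at 61.6, 8.38, 6.62, 2.87 and 1.88 FPKM in the same order. In each of the 5 groups the 2 loci were within 1.09-fold of each other, and reads shared by near-identical gene copies cannot be told apart in these values. MDP0000568045 went from 107 FPKM at harvest to 4.69 and 1.9 FPKM in control fruit, and to 1.81 and 0.718 FPKM in 1-MCP fruit. It held the lowest value of its 5 in 1-MCP fruit after shelf life, where its difference from harvest was -5.97.

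Shelf life brought changes under 1 unit on the log2(FPKM + 1) scale, as the rule requires, though not always small ones in the ratio of FPKM. The median change was -0.18 in control and -0.22 in 1-MCP fruit, while that of the 30310 loci was -0.24 and -0.13. It was below 0 at 48 members in control fruit (71.1% of all loci) and at 43 in 1-MCP fruit (65.1% of all loci). Both changes were below 0 at 36 members and both above 0 at 7, for which the shares of all loci were not computed. On FPKM itself 34 members were at least 2-fold lower after shelf life in control fruit, beside 13.8% of all loci, and 21 in 1-MCP fruit, beside 8.03%. The rule selects for low stored values, and the shares of loci at such low FPKM were not computed for this change. Nothing is therefore read from these 2 counts.

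The changes nearest the limit were falls. CUFF.45415, with MDP0000143603, went from 1.09 to 0.0523 FPKM over shelf life in control fruit (-0.99), while 1-MCP fruit went from 2.11 to 1.18 FPKM; its harvest value was 46.0 FPKM. CUFF.27698, with MDP0000196032, went from 1.5 to 0.27 FPKM in control fruit (-0.98), while 1-MCP fruit went from 2.41 to 1.11 FPKM; its harvest value was 44.6 FPKM. Both fell further in control than in 1-MCP fruit on this scale. The largest falls in 1-MCP fruit were at MDP0000241847, from 2.02 to 0.569 FPKM (-0.94; 27.0 FPKM at harvest, 0.351 and 0.537 FPKM in control fruit), and at CUFF.49074 (-0.93).

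Rises over shelf life were small in FPKM. MDP0000180062 went from 0.934 to 2.61 FPKM in control fruit (0.90), while 1-MCP fruit went from 1.06 to 1.6 FPKM; its harvest value was 32.7 FPKM. CUFF.5216, with MDP0000607529, went from 2.18 to 4.9 FPKM in 1-MCP fruit (0.89), while control fruit went from 2.05 to 3.32 FPKM; its harvest value was 32.8 FPKM. Neither regained more than a small part of its harvest level. The second largest rises were those of MDP0000187921 in control fruit (0.69) and MDP0000224162 in 1-MCP fruit (0.46), whose values are given above.

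The limits of the rule cut through a continuous range. Just inside the limit on the decline lay MDP0000875111, with a least negative difference of -2.503 (36.5 FPKM at harvest, 5.62 FPKM in control fruit after shelf life), and MDP0000166016, with -2.505 (6.49 FPKM at harvest, 0.32 FPKM in control fruit on removal from the cold). Just outside lay MDP0000407613 at -2.497 (19.0 and 2.54 FPKM in the same groups as the last) and CUFF.41303 at -2.47 (10.9 FPKM at harvest, 1.15 FPKM in 1-MCP fruit after shelf life). CUFF.45415 and CUFF.27698 were nearest inside the limit on the shelf-life change. Just outside it were MDP0000947876, which fell by 1.04 in 1-MCP fruit, and MDP0000139844, which fell by 1.05 in control fruit.

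Of the 30310 loci, 28620 were 2.5 units or more below harvest in none of the stored groups, 946 in 1, 516 in 2, 136 in 3 and 92 in all 4. The 4 differences of a locus share its 1 harvest value, so an error in that value would move all 4 together. Declines in several groups are therefore not separate checks of each other. Of the 92, 30 were left out because a shelf-life change reached 1 unit. In control fruit that change was a fall at 17 of the 30 and a rise at 1, and in 1-MCP fruit a fall at 14 and a rise at 4. At the 136 loci with a decline in 3 groups, the group that missed the limit was 1-MCP fruit on removal from the cold at 80, 1-MCP fruit after shelf life at 27, control fruit on removal from the cold at 22 and control fruit after shelf life at 7. Declines limited to one treatment were counted under other limits, with none on the shelf-life change, so their number cannot be set against that of the members. A decline of 2.5 units in both control groups with less than 1 unit in both 1-MCP groups was met by 89 loci, and the reverse by 76. The mirror image of the member rule, a rise of at least 2.5 units in all 4 stored groups with the same limit on shelf life, was met by 3 loci.

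A further 49 loci with a gene model met every limit except that at least 1 stored group was listed at 0. The rule leaves them out, since software may list a failed estimate as 0. Of the 49, 24 were listed at 0 in all 4 stored groups, and none at harvest. Their harvest level was between 5.15 and 2760 FPKM, with a median of 12.4 FPKM. The highest were MDP0000341480 at 2760 FPKM and MDP0000360520 at 433 FPKM, both listed at 0 in the 4 stored groups and both chosen after their values were seen. Of the 11977 unannotated assembled loci that passed the filter, 3 met the other conditions. They were CUFF.33977, CUFF.37118 and CUFF.4936, at 54.6, 13.1 and 16.2 FPKM at harvest.

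The kind of locus was not part of the rule beyond the need for a gene model. Assembled loci (CUFF numbers) with a gene model made up 20 members (32.3%) and gene models without an assembled locus 42 (67.7%), where they were 77.6% and 22.4% of the 30310 loci. Gene models without an assembled locus were also frequent among all loci past the same limit in a single group, at 50.0% in control fruit on removal from the cold, 48.9% in control fruit after shelf life, and 63.0% and 62.3% in 1-MCP fruit. They were 65.8% of the 76 loci that declined with 1-MCP alone, 42.7% of the 89 that declined in control fruit alone, and 47 of the 49 loci with a 0. No test was made of these shares.

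The median at harvest was 30.2 FPKM for the assembled members and 22.5 FPKM for the others. On removal from the cold the assembled members had medians of 0.945 FPKM in control and 2.14 FPKM in 1-MCP fruit, and the others 0.347 and 0.979 FPKM. After shelf life the medians were 0.198 FPKM in control and 1.18 FPKM in 1-MCP fruit for the assembled members, and 0.173 and 0.429 FPKM for the others, so control fruit differed little between the kinds at that time. Of the 20 assembled members, 16 were higher with 1-MCP on removal from the cold and 17 after shelf life, 5 and 4 of them by at least 1 log2 unit, and 0 were lower by that much at either time. Among the 42 others 24 and 26 were higher, 9 and 3 by at least 1 unit, and 4 were lower by that much at each time. The shares of all loci of each kind with these directions and sizes were not computed, so no contrast between the kinds is read from these counts.

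CUFF.30995 was the 1 member with several gene models, MDP0000548003 and MDP0000548004. It stood at 13.9 FPKM at harvest, 0.236 and 0.0719 FPKM in control fruit, and 0.211 and 0.177 FPKM in 1-MCP fruit. Control and 1-MCP fruit were close on removal from the cold, and after shelf life the 1-MCP value was 2.46-fold the control value, both far below 1 FPKM. CUFF.25929 (MDP0000126455) and CUFF.29163 (MDP0000141463) had the same value in each of the 5 columns, at 24.6, 0.946, 0.126, 3.15 and 1.22 FPKM in the order harvest, control fruit at both times and 1-MCP fruit at both times, so they may not be separate measurements. MDP0000518858 and MDP0000771693 had the same values in the 4 stored groups and 17.6 and 15.7 FPKM at harvest. MDP0000126361 shared their values in the control groups, but not in the 1-MCP groups. Repeats of all 5 values were also found outside the members, at 852 of the 42287 loci of any kind that passed the filter.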

How the data were processed

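The authors deposited 1 FPKM value per locus and group, with decimal commas; per the file headers there is no column for a single library, and what the prefix FPKM1 on 4 of the 5 columns means is not given. The libraries were non-directional and read at 100 bp, per the labels' protocols, so strand is not known. TopHat2, Cufflinks and Cuffdiff are named in the submitters' processing notes; for versions, genome build, annotation and the joining of replicates the entry is: not given in the sources used here. Groups come from the sample titles.

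Differences of log2(FPKM + 1) between groups were computed with Python 3.11.15, pandas 2.3.3 and numpy 2.4.6; the pseudocount understates changes of low loci. The limma fit planned for values per library was not possible. Members and lists were chosen with earlier results of these data known. Named loci are, per comparison, the 2 most extreme members in each direction, the 3 highest at harvest, the 2 loci on each side of each limit, and members with several gene models. Alternatives were 3 scalings (75th percentile, trimmed mean with 30% trimmed at each end, quantile normalization), pseudocounts of 0.1 and 5, and other limits and filters. The rule was run on simulated data in which large falls were planted at loci of high harvest level only. That checks the code, not how the rule behaves at the low FPKM of most members. Depth is unknown.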

Additional observations from a re-analysis of the deposited data

How the results depend on the processing

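No paired analysis was possible because values of single replicates are not in the file, and no replicate could be left out. The 62 members became 54, 60 and 55 with 75th percentile, trimmed mean and quantile scaling, of which 51, 57 and 49 were members. A pseudocount of 0.1 gave 57 loci, but only 34 of them were members, and a pseudocount of 5 gave 27, of which 20 were. A mean of at least 5 FPKM left 35, a decline of at least 2 gave 128 and of at least 3 gave 31, a shelf-life change under 0.5 left 39, and keeping loci listed at 0 gave 111. Median differences from harvest, in the order control and then 1-MCP fruit, each on removal from the cold and after shelf life, were -4.93, -5.83, -4.38 and -4.996 with a pseudocount of 0.1, and -2.31, -2.36, -2.18 and -2.27 with 5. Members at least 1 unit higher and lower with 1-MCP became 24 and 7 on removal from the cold and 26 and 8 after shelf life with a pseudocount of 0.1, and 1 and 0, then 0 and 1, with 5. These moves follow from the construction, since most stored values lie near or below 1 FPKM. Scaling moved the median of all gene model loci by up to 0.37, and with quantile normalization the members after shelf life were 5 higher and 6 lower with 1-MCP, a turn in the more frequent direction. On removal from the cold, members higher and lower were 13 and 4 with 75th percentile, 11 and 5 with trimmed mean, and 10 and 5 with quantile scaling. Of 300 values of named loci, 75 moved by more than 1.5-fold, all under another pseudocount, and 0 changed sign. A pseudocount cannot change a sign, so only the 3 scalings could have done so. Many of the values are also differences from harvest, which the rule keeps far from 0.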
